A study of Mus musculus with 61 samples.

Results

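The comparison described here sets the 7 adipose RNA-seq libraries of Cast mice, a wild-derived strain, against the 30 libraries of the 4 classical inbred strains 129 (7 libraries), AJ (7), B6 (8) and NOD (8). These are 37 of the 61 libraries of the series, and they were chosen by the strain name in the sample labels. The core value of a gene is the unweighted mean of the means of 129, AJ, B6 and NOD, so that no strain counts for more through its number of libraries. All 5 strains were fed alike, on a diet rich in fat and sugar whose fat content the labels give as 45 percent, and no library comes from another diet. The labels do not give the sex or age of the mice, the fat depot or a batch, and they do not state that each library is a separate animal, so p-values measure the spread between labelled samples. Every comparison asks how adipose expression in Cast differs from that of the core strains under the same diet.

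Cast mice descend from the subspecies Mus musculus castaneus, whereas the genomes of the classical strains are mostly of domesticus origin. Adipose tissue stores triglyceride in fat cells and releases fatty acids through lipolysis. It also secretes hormones such as leptin, the signal of stored fat, and holds macrophages and lymphocytes whose number is known to change with obesity. Fat cells burn part of their fatty acids in mitochondria, and thermogenic fat cells release this energy as heat through the uncoupling protein Ucp1. In RNA from a whole tissue, fewer cells of a type and less RNA per cell cannot be told apart.

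The 37 libraries held 31185720 to 61277574 counts, and the Cast libraries 31185720 to 42680900. Each of the 7 Cast libraries was nearest to another Cast library by the correlation of log2 CPM, where CPM is the read count scaled to library size. As a check of the tissue label, the fat cell hormone gene adiponectin (Adipoq) had 221 to 2578 CPM (median 1916) in Cast, against 1012 to 3002 CPM (median 2172) in the core libraries. Cast replicates 5 and 6 stood apart, with 221 and 407 CPM of Adipoq against 1877 to 2578 CPM in the 5 other Cast libraries. Results are therefore also given without these 2 libraries. Cast replicate 3 was rich in liver transcripts, whose markers summed to 1152 CPM, against 50.4 to 164 CPM in the 6 other Cast libraries and 6.37 to 1865 CPM in the core libraries. The X-linked RNA Xist ran from 0.422 to 618 CPM in Cast and from 0.212 to 630 CPM in the core libraries.

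**Figure D1:**
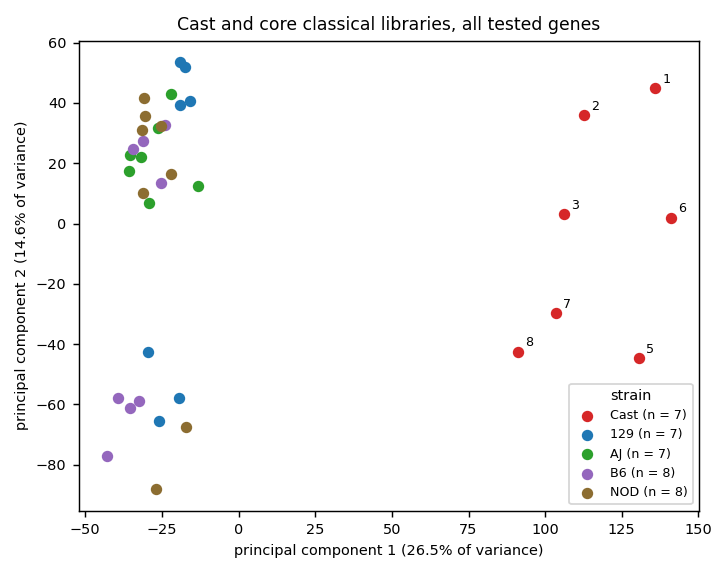
Principal components of log2 CPM over the 37 libraries, with component 1 (26.5% of variance) on the horizontal axis and component 2 (14.6%) on the vertical axis; each point is a library, and numbers are Cast replicates. The 7 Cast libraries lie between 91.2 and 141 on component 1, apart from all 30 core libraries, and both groups spread along component 2.

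Of 18603 genes tested, 10838 (58.3%) passed an adjusted p of 0.05 (Benjamini-Hochberg) in edgeR's quasi-likelihood test and are said to be called. They were 5683 genes higher in Cast (30.5%) and 5155 lower (27.7%), and 3889 (20.9%) were called with a change of at least 2-fold. In 513 genes (2.76%) all 7 Cast values lay above all 30 core values, and in 771 genes (4.14%) all lay below. The median log2 fold change of all genes, Cast over core, was 0.03. Without Cast replicates 5 and 6, 9673 genes were called, 4843 higher and 4830 lower, and 8715 genes were called in the same direction both times (80.4% of the calls with all 7 libraries). A count of members from a gene list is read below against these shares, since more than 1 gene in 2 was called.

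Several genes with little or no RNA in the core strains were expressed in all 7 Cast libraries. Calb1, which encodes the calcium-buffering protein calbindin, had 11 to 152 CPM (median 36.5) in Cast, against 0 to 0.24 CPM (median 0.0268) in the core libraries. Cyp2b10, a cytochrome P450 that oxidises drugs and other foreign compounds, had 14.6 to 314 CPM (median 92) in Cast, against 0.0442 to 3.55 CPM (median 0.527) in the core libraries. Their log2 fold changes were 10.14 ± 0.38 (SE; adjusted p = 1.37e-30) and 7.75 ± 0.36 (SE; adjusted p = 4.26e-26) by edgeR, and neither gene overlapped between the groups. The size of such a fitted change depends on the small count added where a group is near 0. Tas1r1, a subunit of the umami taste receptor, had 22.4 to 47.9 CPM (median 31.6) in Cast, against 0 to 0.431 CPM (median 0.135) in the core libraries. Serpina3j, a serine protease inhibitor of the Serpina3 cluster, had 6.75 to 46.3 CPM (median 28.1) in Cast, against 0 to 0.82 CPM (median 0.00921) in the core libraries. Cast lay above every core library for both of these genes as well, with log2 fold changes of 7.81 ± 0.32 and 9.49 ± 0.54.

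Other leading genes had a moderate level in the core strains and a far higher one in Cast. Irf4, a transcription factor of immune cells that in mouse fat cells also controls lipolysis and thermogenic genes, had 163 to 1278 CPM (median 553) in Cast, against 7.31 to 39.2 CPM (median 13.8) in the core libraries. Its log2 fold change was 5.31 ± 0.34 (SE; adjusted p = 1.44e-19), and the lowest Cast value lay above the highest core value. Pus7l, named for its likeness to a pseudouridine synthase of RNA, had 56.5 to 633 CPM (median 82.5) in Cast, against 2.83 to 4.76 CPM (median 3.82) in the core libraries, with a log2 fold change of 5.69 ± 0.19 (SE; adjusted p = 7.17e-33). Cast replicate 1 held the highest Pus7l value, and without this library the change was 5.02. Arc, an activity-regulated gene of neurons, had 13 to 54.7 CPM (median 27.3) in Cast, against 0.471 to 8.26 CPM (median 2.01) in the core libraries, and its log2 fold change was 3.74 ± 0.29. Cyp2e1, a cytochrome P450 that oxidises ethanol and acetone, had 3589 to 13410 CPM (median 7426) in Cast, against 147 to 2908 CPM (median 1063) in the core libraries. It was an abundant transcript with a log2 fold change of 2.86 ± 0.30 (SE; adjusted p = 5.08e-12), and the groups did not overlap. Of the 20 cytochrome P450 genes listed, 11 were called higher and 6 lower, with a median of 0.53.

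Among the genes that fell most in Cast were several with very few reads left. Fam213b, also known as a prostamide and prostaglandin F synthase, had 0 to 0.449 CPM (median 0.028) in Cast, against 13.8 to 63.5 CPM (median 32.4) in the core libraries. Its log2 fold change was -8.13 ± 0.37 (SE; adjusted p = 1.82e-26). It was -8.75 without Cast replicate 1 and -8.76 without replicate 8. Retnla, a secreted resistin-like protein of adipose tissue and of alternatively activated macrophages, had 0.427 to 12.5 CPM (median 1.87) in Cast, against 74.4 to 333 CPM (median 148) in the core libraries. Here the log2 fold change was -5.23 ± 0.40 (SE; adjusted p = 7.35e-17), and the highest Cast value was well below the lowest core value. Without Cast replicate 8 it was -5.84. Tmem45b, a transmembrane protein, had 0 to 23.9 CPM (median 1.01) in Cast, against 62.3 to 567.9 CPM (median 266) in the core libraries, and the inward rectifier potassium channel gene Kcnj14 had 0.224 to 1.07 CPM (median 0.716) in Cast, against 8.34 to 57.3 CPM (median 24.1) in the core libraries. They fell by 5.63 and 5.49 on the log2 scale without overlap. Cast replicate 8 held the highest Cast value of Tmem45b, and without it the change was -7.06. St6galnac5, a sialyltransferase gene, had 0 to 0.584 CPM (median 0.0373) in Cast, against 2.21 to 25.7 CPM (median 8.82) in the core libraries, and Cela1, an elastase gene, had 0.133 to 1.04 CPM (median 0.643) in Cast, against 6.21 to 44 CPM (median 22.4) in the core libraries. Both lay below every core library, with log2 fold changes of -5.78 and -4.96. Without Cast replicate 7 the change of St6galnac5 was -6.71.

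**Figure D2:**
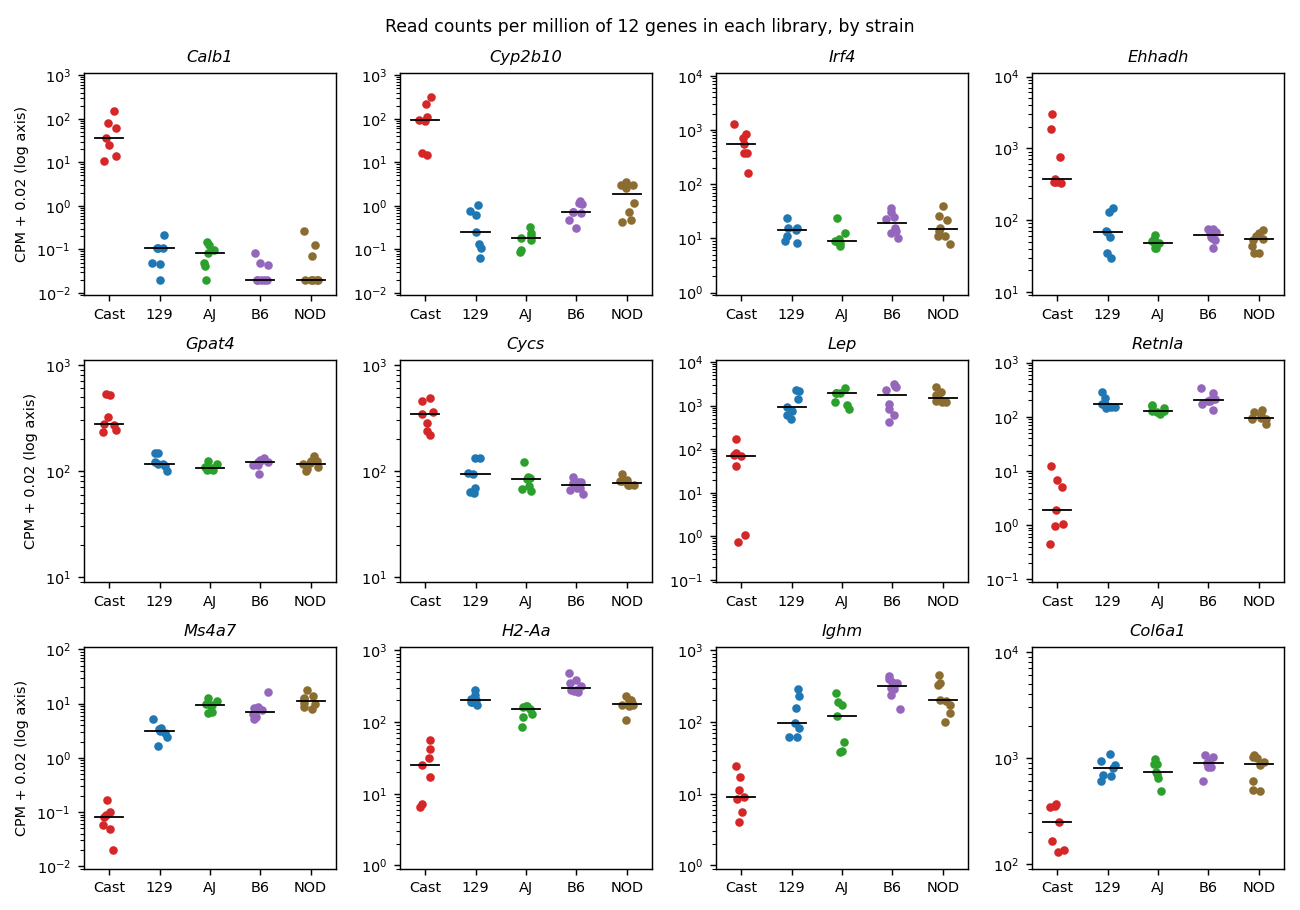
CPM plus 0.02, on log axes, of 12 genes in each library of Cast, 129, AJ, B6 and NOD, with a bar at the median of each strain. For all 12 genes the Cast points lie wholly above (Calb1 to Cycs) or wholly below (Lep to Col6a1) the points of the 4 core strains. Those named for the largest changes were chosen for such separation.

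A pass over all tested genes, made after their values were seen and without a test, listed genes near 0 in every library of 1 group. The other group was held only to a mean of at least 5 CPM, so single libraries of it could be near 0 too. In 19 genes every Cast library was under 0.5 CPM while the core strains averaged at least 5 CPM. Of these, 12 share reads with other genes, so their level in Cast is uncertain, and 7 do not. How well Cast reads match the reference genome was not tested for any of them. Besides Fam213b, Ms4a7 and Wfdc17, the 7 that do not share reads include Tph2, which encodes the tryptophan hydroxylase of neurons. It had 0 to 0.0289 CPM in Cast, against 0.253 to 60.1 CPM (median 2.15) in the core libraries, whose core mean was 5.52 CPM. Tph2 was near 0 in the wild-derived strains PWK and WSB too, averaging 0.013 and 0.0216 CPM. Conversely, 13 genes averaged at least 5 CPM in Cast and stayed under 0.5 CPM in every core library, and 12 of them do not share reads. They included Gad1, which makes the transmitter GABA, at 7.27 to 28.5 CPM in Cast, and the kappa opioid receptor gene Oprk1 at 1.46 to 12.3 CPM. The nicotinic receptor subunit gene Chrnb4, at 2.73 to 13.5 CPM in Cast, was also among them. Chrnb4 averaged 15.5 CPM in PWK, and Cast was not called different from PWK (-0.75, adjusted p = 0.227, edgeR). The acute-phase genes Saa1 and Saa2 met this limit through Cast replicates 5 and 6, with 72.9 and 150.0 CPM of Saa1 there and at most 2.28 CPM in the 5 others. Pkd2l1 had 30.35 and 86.6 CPM in these 2 libraries and at most 4.94 CPM in the 5 others. Acot5 had 8.08, 9.33 and 18.25 CPM in Cast replicates 1, 5 and 6 and at most 0.224 CPM elsewhere in Cast. Tectb and Ppp1r3g were also highest in replicates 1, 5 and 6.

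Genes of antigen presentation through MHC class II were lower in Cast throughout. Class II molecules are pairs of an alpha and a beta chain that dendritic cells, B cells and macrophages use to show peptides to T cells. All 10 tested members of the list were called lower, 7 of them with all Cast values below all core values, and their median log2 fold change was -2.75, against 0.03 for all genes. The alpha chain gene H2-Aa had 6.46 to 55.2 CPM (median 25.1) in Cast, against 85.7 to 482 CPM (median 195) in the core libraries, with a log2 fold change of -2.95 ± 0.26 (SE; adjusted p = 3.16e-14). The beta chain gene H2-Ab1 had 2.99 to 35.1 CPM (median 12.8) in Cast, against 43.7 to 327 CPM (median 125) in the core libraries, and H2-Eb1, another beta chain gene, had 5.16 to 34.8 CPM (median 19.4) in Cast, against 40.3 to 349 CPM (median 142) in the core libraries. All of their Cast values lay below the core values, and the changes were -2.95 ± 0.28 and -2.80 ± 0.31. Ciita, the coactivator that switches on class II genes, had 0.15 to 3.2 CPM (median 0.895) in Cast, against 4.2 to 28.8 CPM (median 11) in the core libraries, with a change of -3.04 ± 0.29 (SE; adjusted p = 1.8e-13). The invariant chain gene Cd74 fell by 2.77 on the log2 scale, and H2-DMa, which helps to load peptides, by 2.02. Without Cast replicates 5 and 6 all 10 members stayed called lower, with a median of -2.46.

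Class II promoters are known to carry a Y box, a CCAAT-type element bound by the factor NF-Y next to the elements through which Ciita acts. Because this list moved together, the RefSeq promoter windows on GRCm38.p6, from 250 bases before to 50 after the annotated start, were searched for ATTGG and for the longer CTGATTGG on both strands. Every CTGATTGG match is also a match of ATTGG. Of the 10 genes, 7 had a window (8 windows in all), and ATTGG was in 7 of these 8, against 37.4% of all 32851 windows. CTGATTGG was in 3 of the 8, against 4.1% of all windows. These are the promoters of H2-Aa at chr17:34287774-34288073 (minus strand), H2-Eb1 at chr17:34305617-34305916 (plus strand) and H2-Oa at chr17:34092129-34092428 (plus strand), shown from 5′ to 3′ with CTGATTGG in capitals. The match begins 51, 62 and 46 bases before the start of H2-Aa, H2-Eb1 and H2-Oa.
H2-Aa: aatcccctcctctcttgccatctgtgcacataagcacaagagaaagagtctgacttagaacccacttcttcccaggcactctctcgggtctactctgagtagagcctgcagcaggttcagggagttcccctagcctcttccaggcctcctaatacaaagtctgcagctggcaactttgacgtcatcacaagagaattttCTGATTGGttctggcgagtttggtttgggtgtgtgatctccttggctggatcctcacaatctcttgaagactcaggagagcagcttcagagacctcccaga
H2-Eb1: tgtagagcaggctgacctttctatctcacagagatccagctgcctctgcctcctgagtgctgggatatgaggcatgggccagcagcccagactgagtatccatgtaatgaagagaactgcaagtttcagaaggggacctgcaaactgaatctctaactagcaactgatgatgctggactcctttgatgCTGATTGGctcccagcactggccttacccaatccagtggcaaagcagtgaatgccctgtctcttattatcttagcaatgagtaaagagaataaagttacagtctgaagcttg
H2-Oa: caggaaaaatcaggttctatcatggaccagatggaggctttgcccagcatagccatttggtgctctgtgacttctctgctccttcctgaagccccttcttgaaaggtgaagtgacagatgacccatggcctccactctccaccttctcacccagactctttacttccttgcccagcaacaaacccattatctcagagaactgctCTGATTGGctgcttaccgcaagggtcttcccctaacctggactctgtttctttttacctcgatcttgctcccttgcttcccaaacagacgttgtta
These letters are from the reference genome and not from Cast, and a match describes the sequence only.

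Markers of T, NK and B cells were low in the same libraries. Of 24 T and NK cell markers 22 were called lower and 0 higher, with a median of -2.03, and Cd27 (-0.23) and Klrb1c (0.13) were not called. Their summed level was 9.84 to 22.8 CPM in Cast, against 34.7 to 113 CPM in the core libraries. Cd3g, a chain of the T cell receptor complex, had 0 to 0.202 CPM (median 0.0373) in Cast, against 0.454 to 1.92 CPM (median 1.08) in the core libraries, so that few reads stood behind the Cast values. Its log2 fold change was -3.58 ± 0.39 (SE; adjusted p = 2.72e-11). Of 19 B and plasma cell markers 17 were called lower, and Xbp1, which also acts in the unfolded protein response, was called higher (1.26). Without Cast replicates 5 and 6, 12 of these 19 and 21 of the 24 T and NK cell markers were called lower. The summed level of the B and plasma cell list, Xbp1 included, overlapped between the groups. It was 191 to 650 CPM in Cast, against 233 to 703 CPM in the core libraries. Ighm, the heavy chain of IgM, had 3.99 to 24.1 CPM (median 8.87) in Cast, against 38.4 to 458 CPM (median 191) in the core libraries, and Cd22, a B cell receptor inhibitor, had 0.0748 to 0.837 CPM (median 0.319) in Cast, against 0.915 to 6.67 CPM (median 2.38) in the core libraries. Both were below every core library, with changes of -4.07 ± 0.53 and -2.62 ± 0.45. The part that cell number plays in the class II result was not tested. MHC class I and peptide loading genes, which most cells express, also had 15 of 16 members called lower, with a median of -0.84. Of these 16, 11 share reads. How well Cast reads match the reference genome was not tested for class I or class II genes.

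Macrophage markers split into genes that fell steeply and genes that did not. Of 23 markers 10 were called lower and 4 higher. Ms4a7, a membrane protein of macrophages, had 0 to 0.15 CPM (median 0.0598) in Cast, against 1.61 to 18 CPM (median 8.08) in the core libraries, a log2 fold change of -6.88 ± 0.53 (SE; adjusted p = 1.04e-16). Folr2, the folate receptor of resident macrophages, had 3.67 to 8.8 CPM (median 6.36) in Cast, against 16.7 to 59.1 CPM (median 38.3) in the core libraries, and Clec4n, the gene of the fungal receptor Dectin-2, had 0 to 0.299 CPM (median 0.0289) in Cast, against 0.343 to 3.31 CPM (median 1.17) in the core libraries. No Cast value of these 3 genes reached the core range, and Folr2 and Clec4n changed by -2.54 ± 0.18 and -3.74 ± 0.49. Wfdc17, a small secreted protein of macrophages, had 0 to 0.411 CPM (median 0) in Cast, against 2.18 to 16.7 CPM (median 8.89) in the core libraries, with a change of -6.27 ± 0.52. Leaving out Cast replicate 1 or 8 gave -7.19 and -6.96 for Wfdc17, and leaving out replicate 5 gave -4.48 for Clec4n. The general markers Cd68 (-0.56), Mrc1 (0.10) and Lyz2 (-0.14, shares reads) were not called, and the summed level of the list overlapped, at 829.1 to 2599 CPM in Cast against 754 to 2948 CPM in the core libraries. Cd14, the receptor for bacterial lipopolysaccharide, was called higher (2.43), with 274 and 255 CPM in Cast replicates 5 and 6 and 12.1 to 40.9 CPM in the 5 others. Without those 2 libraries its change was 0.53 (adjusted p = 0.0526, edgeR), and the list had 13 members lower and 2 higher.

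Genes of lipid-associated macrophages, which gather around dying fat cells in obesity, did not move as a group, with 5 of 17 members called higher and 4 lower. Trem2, the lipid receptor of these cells, had 37.9 to 136 CPM (median 75.2) in Cast, against 2.58 to 85.4 CPM (median 17.5) in the core libraries. It was higher in Cast by 1.91 ± 0.36 (SE; adjusted p = 8.15e-06), with 7 of 7 Cast libraries above the core median. Mmp12, the macrophage elastase, had 0.308 to 2.53 CPM (median 0.837) in Cast, against 0.919 to 239.7 CPM (median 22.1) in the core libraries. It moved the other way, by -5.01 ± 1.05 (SE; adjusted p = 5.4e-05), with 7 of 7 Cast libraries below the core median.

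**Figure D3:**
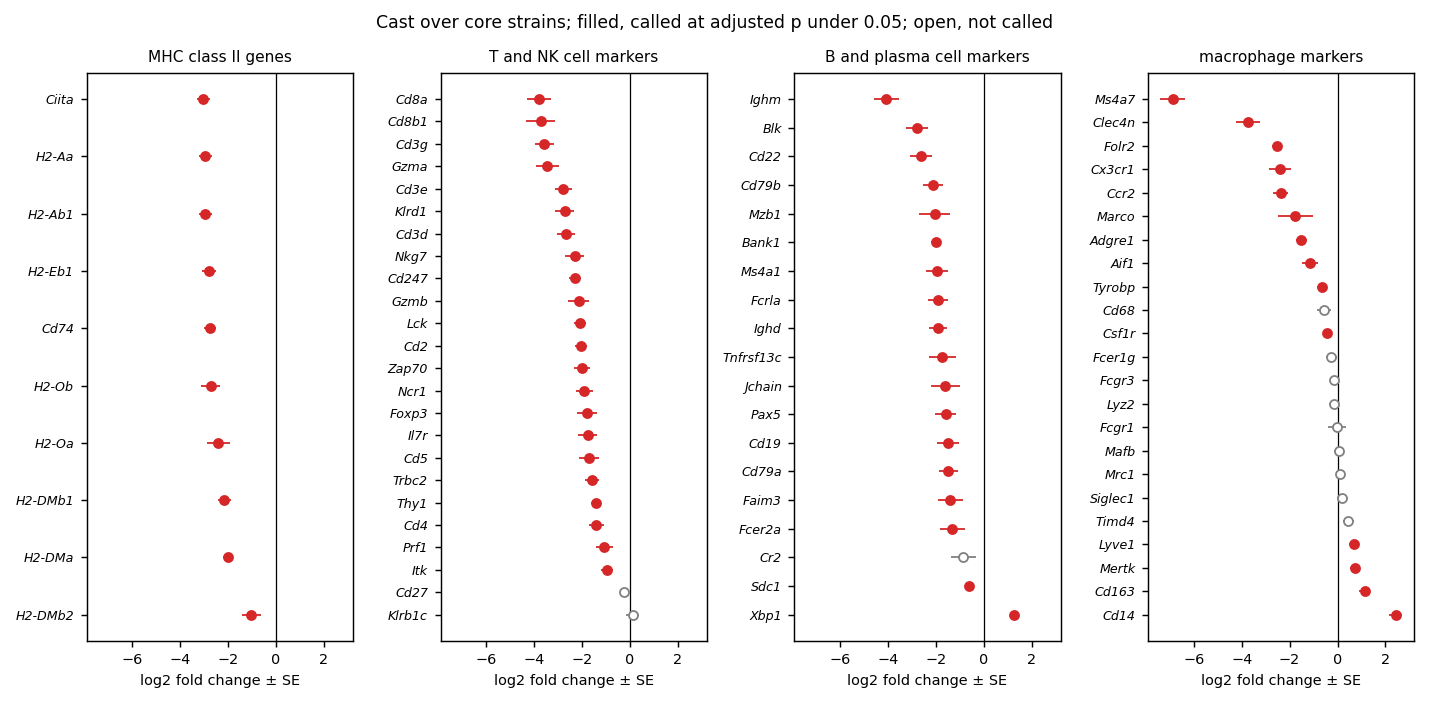
Log2 fold change (horizontal axis, Cast over core, ± SE) of each tested member of 4 immune lists, with filled points for called genes and open points for the others. All 10 class II genes and 22 of 24 T and NK cell markers are lower in Cast, while macrophage markers run from -6.88 for Ms4a7 to 2.43 for Cd14.

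Genes of mitochondrial respiration and fatty acid oxidation were higher in Cast. In the respiratory chain and ATP synthase encoded in the nucleus, 44 of 51 genes were called higher and 0 lower, with a median of 0.71 on the log2 scale. Uqcrfs1, the iron-sulphur protein of complex III, had 151 to 414 CPM (median 334) in Cast, against 83.6 to 215 CPM (median 118) in the core libraries, with a change of 1.20 ± 0.20 (SE; adjusted p = 6.43e-07). In 5 of the 7 Cast libraries it lay above every core library. Cycs, the electron carrier cytochrome c, had 217 to 488 CPM (median 341) in Cast, against 61 to 132 CPM (median 77.6) in the core libraries and did not overlap, but it shares reads with other genes. Cast replicate 5, in which fat cell markers were low, held the lowest Cast value of both genes. Without Cast replicates 5 and 6, 49 of 51 genes were called higher and the median was 0.91.

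Of the 13 genes that mitochondrial DNA encodes, 9 were called higher and 1 lower, and 8 of the 13 share reads. mt-Nd2, a complex I subunit, had 2323 to 12370 CPM (median 7413) in Cast, against 1750 to 5892 CPM (median 2973) in the core libraries, with a change of 1.14 ± 0.24 (SE; adjusted p = 6.35e-05). The member that fell, mt-Co2, had 4.29 to 44.3 CPM (median 11.2) in Cast, against 1269 to 3706 CPM (median 1646) in the core libraries. Its reads are divided with another gene, so the low level in Cast is uncertain. Ribosomal protein genes raise the same doubt, as 27 of the 35 listed share reads. Rpl9 had 211 to 366 CPM (median 298) in Cast, against 8.91 to 16.5 CPM (median 12.4) in the core libraries, and Rpl19 had 269 to 366 CPM (median 294) in Cast, against 11.4 to 25.7 CPM (median 16.9) in the core libraries. The listed ribosomal genes had 32 members called higher and 3 lower, with a median of 0.35.

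In fatty acid oxidation 18 of 25 genes were called higher and 1 lower, with a median of 0.71. Ehhadh, the bifunctional enzyme of peroxisomal oxidation, had 328 to 2975 CPM (median 368) in Cast, against 29.6 to 148 CPM (median 55.7) in the core libraries. Its change of 4.07 ± 0.28 (SE; adjusted p = 2.76e-18) was the largest of the list, the groups did not overlap, and without Cast replicate 6 it was 3.48. Pdk4, the kinase that turns pyruvate dehydrogenase off, had 519.6 to 1926 CPM (median 1288) in Cast, against 94 to 873 CPM (median 282) in the core libraries, and Acadl, which starts the oxidation of long-chain fatty acids, had 191 to 808 CPM (median 548) in Cast, against 124 to 482 CPM (median 189) in the core libraries. They rose by 2.05 ± 0.30 and 1.39 ± 0.23, and 5 and 4 Cast libraries lay above every core library. Cpt1a, one of the gatekeepers of fatty acid entry into mitochondria, was the member called lower, at -0.48 ± 0.16 (SE; adjusted p = 0.00761). It had 77.9 to 154 CPM (median 96.6) in Cast, against 106 to 219.6 CPM (median 149) in the core libraries, and without Cast replicates 5 and 6 it was not called (-0.41, adjusted p = 0.0565).

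Thermogenic genes were high in Cast but varied widely between libraries. Of 19 tested, 12 were called higher and 2 lower, with a median of 1.74. Ucp1 had 3.55 to 1505 CPM (median 105) in Cast, against 0.0774 to 771 CPM (median 10.4) in the core libraries, with a change of 3.13 ± 0.92 (SE; adjusted p = 0.00294). The groups overlapped widely, 2 Cast libraries exceeded every core library, and 5 of 7 lay above the core median. Without NOD in the core mean the change was 1.76 and not called (adjusted p = 0.135). Without Cast replicate 3 it was 2.30. Ucp1 had 212 to 1505 CPM in Cast replicates 1 to 3, where Xist was 398 to 618 CPM. It had 3.55 to 105 CPM in the other Cast libraries, where Xist was at most 52.8 CPM. Replicates 1 to 4 of 129, also high in Xist, had 107 to 771 CPM, and its others 11.3 to 23.2 CPM. AJ and B6 split likewise. NOD did not, with 0.526 to 6.21 CPM in replicates 1 to 4 and 0.0774 to 8.13 CPM in 5 to 8. The link with Xist was not tested. Elovl3, a fatty acid elongase of brown fat, had 4.75 to 152 CPM (median 64.5) in Cast, against 0.0784 to 23.4 CPM (median 1.52) in the core libraries, with a change of 4.12 ± 0.62 (SE; adjusted p = 1.17e-07). Dio2, which activates thyroid hormone, had 4.05 to 83.6 CPM (median 8.39) in Cast, against 0.552 to 20.9 CPM (median 1.8) in the core libraries, with a change of 2.80 ± 0.57. In both genes all 7 Cast libraries lay above the core median. Ppargc1a, a coactivator that drives the formation of mitochondria, had 14.3 to 70.3 CPM (median 19.2) in Cast, against 2.51 to 14 CPM (median 4.93) in the core libraries, and no Cast value fell in the core range. Prdm16, a regulator of brown fat identity, was not called (-0.17). Cited1, a transcriptional coregulator used as a beige fat marker, had 0.09 to 0.532 CPM (median 0.187) in Cast, against 0.024 to 21.8 CPM (median 0.312) in the core libraries, and its change of -2.52 was called lower (adjusted p = 0.025, edgeR). The 5 core values above 5 CPM were those of 129 replicates 6, 7 and 9 and B6 replicates 5 and 6, in which male genital duct markers summed to 296 to 1038 CPM. NOD replicate 6 had 1280 CPM of these markers and 0.0774 CPM of Cited1, and Cast had at most 5.67 CPM of the markers. Without the libraries rich in liver, duct or muscle markers, an alternative added after the data were seen, the change was -0.31 (adjusted p = 0.707). The call was also lost without Cast replicate 6 (-2.36, adjusted p = 0.0515), without Cast replicates 5 and 6 (-2.36, adjusted p = 0.0819), in a fit of the 37 libraries alone (-2.52, adjusted p = 0.0518) and without 129 (-1.73, adjusted p = 0.118) or B6 (-2.10, adjusted p = 0.0622) in the core mean. Skeletal muscle markers, some of whose relatives are shared with brown fat, summed to 12 to 131 CPM in Cast against 37.3 to 3959 CPM in the core libraries.

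Enzymes that build triglyceride were mostly higher, with 9 of 16 called higher, 3 lower and a median of 0.50. Gpat4, which makes the first acyl transfer to glycerol phosphate, had 231 to 528 CPM (median 279) in Cast, against 93 to 149 CPM (median 116) in the core libraries, with a change of 1.55 ± 0.10 (SE; adjusted p = 6.05e-20). It separated the groups completely, as did Mogat2, a monoacylglycerol acyltransferase that had 0.199 to 0.796 CPM (median 0.448) in Cast, against 4.26 to 36.2 CPM (median 9.07) in the core libraries and fell by 4.52 on the log2 scale. Lpin1, a phosphatidate phosphatase, had 267 to 2107 CPM (median 808) in Cast, against 256 to 709.8 CPM (median 417) in the core libraries, and 6 of 7 Cast values lay above the core range, with a change of 1.16 ± 0.16. In the synthesis of fatty acids 8 of 20 genes were called higher and 2 lower. Acacb, the acetyl-CoA carboxylase that makes malonyl-CoA at mitochondria, had 542 to 1580 CPM (median 1139) in Cast, against 114 to 1050 CPM (median 324) in the core libraries, and Mlxipl, which encodes the glucose-sensing factor ChREBP, had 99.5 to 236 CPM (median 167) in Cast, against 31.2 to 304 CPM (median 52.9) in the core libraries. They rose by 1.64 ± 0.30 and 1.37 ± 0.27, and all 7 Cast libraries lay above the core median for both. Scd2, a desaturase that shares reads, fell by 1.32 on the log2 scale.

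Of 17 lipolysis genes 5 were called higher and 3 lower, no larger shares than the 30.5% and 27.7% of all genes. Without Cast replicates 5 and 6, 7 were called higher and 4 lower, and the median moved from -0.05 to 0.20. The mean level of the list was 6.03 and 6.79 log2 CPM in those 2 libraries, against 7.27 to 8.01 in the 5 others. Pnpla2, the first lipase of triglyceride breakdown, had 1564 to 6011 CPM (median 3029) in Cast, against 914 to 2834 CPM (median 1973) in the core libraries. Its inhibitor G0s2 had 4.53 to 102 CPM (median 20.4) in Cast, against 67.2 to 254 CPM (median 132) in the core libraries. Pnpla2 rose by 0.75 ± 0.16 (SE; adjusted p = 4.23e-05) and G0s2 changed by -1.67 ± 0.34 (SE; adjusted p = 2.98e-05), with 6 Cast libraries above the core range for Pnpla2 and 4 below it for G0s2. In fatty acid uptake, where 4 of 17 were called higher and 5 lower, also near the shares of all genes, the transporter Slc27a1 had 549.7 to 3078 CPM (median 1577) in Cast, against 125 to 754 CPM (median 325) in the core libraries. Caveolin (Cav1), the coat protein of membrane pits that are dense in fat cells, had 363 to 1891 CPM (median 1249) in Cast, against 1448 to 3809 CPM (median 2599) in the core libraries. Slc27a1 rose by 2.22 ± 0.22 (SE; adjusted p = 2.03e-12), whereas Cav1 changed by -1.26 ± 0.21 (SE; adjusted p = 1.28e-06).

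Cholesterol genes were lower in Cast, with 15 of 24 called lower, 2 higher and a median of -0.69. Sc5d, a sterol desaturase late in the pathway, had 17.2 to 58 CPM (median 22.8) in Cast, against 49.2 to 182 CPM (median 85.4) in the core libraries, with a change of -1.39 ± 0.23 (SE; adjusted p = 8.86e-07). Insig1, which holds back SREBP when sterols are plentiful and is itself an SREBP target, had 64.9 to 402 CPM (median 227) in Cast, against 293 to 1184 CPM (median 478) in the core libraries, with a change of -1.20 ± 0.23. All 7 Cast libraries lay below the core median for both genes, and 4 and 5 of them below every core library. Without Cast replicates 5 and 6 together 12 genes of the list were called lower and 0 higher.

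The promoters of cholesterol genes are known to pair sterol elements with NF-Y sites, so the same letters were searched there. Of the 24 genes 16 had a window (19 windows), and ATTGG was in 16 of these 19 and CTGATTGG in 6, beside the shares of 37.4% and 4.1% in all windows. Shown for their place close to the start are those of Sc5d at chr9:42264251-42264550 (minus strand), where the match begins 27 bases before the start, and Idi1 at chr13:8885356-8885655 (plus strand), where it begins 48 bases before. Idi1, an isomerase of the pathway that shares reads, changed by -1.16.
Sc5d: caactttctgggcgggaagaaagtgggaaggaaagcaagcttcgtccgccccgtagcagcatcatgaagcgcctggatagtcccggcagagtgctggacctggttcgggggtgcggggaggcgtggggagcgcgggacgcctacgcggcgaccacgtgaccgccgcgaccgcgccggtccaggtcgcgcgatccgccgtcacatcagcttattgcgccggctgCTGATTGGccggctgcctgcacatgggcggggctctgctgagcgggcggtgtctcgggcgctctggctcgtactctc
Idi1: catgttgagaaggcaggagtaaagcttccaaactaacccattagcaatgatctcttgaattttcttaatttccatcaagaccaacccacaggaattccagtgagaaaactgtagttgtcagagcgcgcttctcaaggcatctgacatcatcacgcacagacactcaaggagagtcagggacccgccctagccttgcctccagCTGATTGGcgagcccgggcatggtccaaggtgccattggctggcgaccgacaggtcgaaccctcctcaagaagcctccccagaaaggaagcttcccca
Again the capitals mark CTGATTGG, in the letters of the reference genome.

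Leptin and most of the listed genes that rise with growing fat mass were low in Cast. Lep had 0.72 to 169 CPM (median 69.9) in Cast, against 427 to 3130 CPM (median 1446) in the core libraries. No Cast library reached the core range, and the log2 fold change was -4.64 ± 0.79 (SE; adjusted p = 1.56e-06). Cast replicates 5 and 6 held only 1.06 and 0.72 CPM, against 40.5 to 169 CPM in the 5 others, and without them the change was -4.16. Nnat, which encodes neuronatin, had 0.787 to 46.1 CPM (median 13.9) in Cast, against 20 to 859 CPM (median 351) in the core libraries, with a change of -4.57 ± 0.74 (SE; adjusted p = 4.98e-07), or -5.18 without Cast replicate 8. Mest, an imprinted gene that marks expanding fat cells and shares reads, had 4.32 to 101 CPM (median 24.7) in Cast, against 17.8 to 1327 CPM (median 349) in the core libraries, and Sfrp5, a secreted inhibitor of Wnt signals, had 1.94 to 46.7 CPM (median 4.34) in Cast, against 3.76 to 358 CPM (median 176) in the core libraries. These 2 genes overlapped between the groups and changed by -3.34 ± 0.59 and -3.29 ± 0.94, with all 7 Cast libraries below the core median. Without Cast replicate 7 the change of Sfrp5 was -4.05. Of the 15 listed genes 9 were called lower and 3 higher, with a median of -1.38. Kcnk3, among those called higher, had 91.6 to 281.5 CPM in Cast, against 24.3 to 72.5 CPM in the core libraries, without overlap. Of 20 general fat cell markers 3 were called higher and 3 lower, under the 30.5% and 27.7% of all genes. Without Cast replicates 5 and 6, 5 were called higher and 2 lower, and the median moved from -0.14 to 0.22. Plin1, the coat protein of the lipid droplet, was not called (-0.38, adjusted p = 0.071), nor were Adipoq (-0.35) and the fatty acid carrier Fabp4 (-0.03). On the variance-stabilised values, limma called Adipoq (-0.72) and Plin1 (-0.68) lower. Cfd, the fat cell protease adipsin, had 1760 to 7441 CPM (median 6425) in Cast, against 442 to 3764 CPM (median 1645) in the core libraries, a rise of 1.50 ± 0.31 (SE; adjusted p = 3.88e-05) with 5 of 7 Cast libraries above the core range.

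Matrix genes fell as well, with 18 of 30 called lower, 2 higher and a median of -0.90. Col6a1, a chain of the collagen VI that surrounds fat cells, had 129 to 366 CPM (median 248) in Cast, against 483 to 1084 CPM (median 858) in the core libraries, and its partner Col6a2 had 114 to 376 CPM (median 262) in Cast, against 437 to 1024 CPM (median 792) in the core libraries. Col15a1, a collagen of basement membranes, had 29.1 to 344 CPM (median 196) in Cast, against 552 to 1051 CPM (median 807) in the core libraries. All 3 lay below every core library, with changes of -1.71 ± 0.20, -1.58 ± 0.21 and -2.22 ± 0.27. Timp1, an inhibitor of matrix proteases, was called higher (2.06), but only Cast replicates 5 and 6 were high, at 56.1 and 58.6 CPM against 1.11 to 3.21 CPM in the 5 others. Without them Timp1 was lower in Cast, at -1.34 (adjusted p = 0.018). With only replicate 5 or 6 left out it was 1.41 and 1.36. Proliferation genes had 19 of 24 members called lower and 1 higher, with a median of -1.46. Bub1b, of the spindle checkpoint, had 0.247 to 1.33 CPM (median 0.634) in Cast, against 1.24 to 11 CPM (median 2.72) in the core libraries, and Birc5, or survivin, had 0.045 to 0.849 CPM (median 0.375) in Cast, against 0.675 to 4.37 CPM (median 1.82) in the core libraries, with 5 and 6 Cast libraries below every core library.

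Stress and inflammatory genes depended on Cast replicates 5 and 6. Of 22 genes of the unfolded protein and integrated stress response 19 were called higher and 0 lower, with a median of 0.89. Without the 2 libraries 8 were called higher, 3 lower, and the median was 0.11. Chac1, a glutathione-degrading target of this response, had 85.3 and 97.1 CPM in Cast replicates 5 and 6, 7.53 to 20.8 CPM in the 5 other Cast libraries and 3.04 to 7.17 CPM in the core libraries. It stayed above the core range in all 7, and its change of 2.95 ± 0.24 (SE; adjusted p = 8.96e-16) became 1.48 without the 2 libraries. Hmox1, the haem oxygenase, had 669.7 CPM in Cast replicate 5, 155 CPM in replicate 6 and 35.1 to 129 CPM in the 5 others, against 20.7 to 55.7 CPM in the core libraries. Its change was 2.42 ± 0.27 with all libraries and 0.98 without them, and 1.32 with only replicate 5 left out.

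Interferon response genes depended on the same libraries. With all 7 Cast libraries 14 of 29 were called lower and 4 higher, with a median of -0.29, whereas without Cast replicates 5 and 6, 25 were lower and 1 higher, with a median of -1.41. The antiviral GTPase gene Mx1 had 44.9 CPM in Cast replicate 5 and 2.29 CPM in replicate 6, 0.224 to 1.47 CPM in the 5 others and 0.415 to 3.64 CPM in the core libraries. Its log2 fold change was 2.12 with all libraries and -1.03 without them (adjusted p = 0.0188). Without replicate 5 alone it was -0.65 and not called. Mx2, its neighbour, had 4.34 to 180.5 CPM (median 9.21) in Cast, against 1.31 to 3.65 CPM (median 1.92) in the core libraries and was above the core range in all 7 Cast libraries, with a change of 4.27 ± 0.31 that became 1.90 without the 2 libraries and 3.01 without replicate 5 alone. Among guanylate-binding proteins and immunity-related GTPases, where 7 of 20 were called lower and 2 higher, Iigp1 had 0 to 2.14 CPM (median 0.0399) in Cast, against 7.8 to 191 CPM (median 27.4) in the core libraries, a change of -6.46 ± 0.59 (SE; adjusted p = 5.67e-14). Cast replicate 8 held its highest Cast value, and without it the change was -8.79.

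Cytokines and chemokines followed the same libraries. With all of them 11 of 26 were called higher and 6 lower (median 0.44), and without Cast replicates 5 and 6 the counts were 3 and 8 (median -0.91). Il6 had 13.5 and 4 CPM in these 2 libraries, against 0.0374 to 0.115 CPM in the 5 others and 0.0262 to 1.22 CPM in the core libraries. The monocyte attractant Ccl2 had 101 and 12.9 CPM there, against 1.42 to 3.74 CPM in the 5 others and 0.961 to 36.5 CPM in the core libraries. Their changes were 3.50 and 1.57 with all libraries and -1.44 and -1.19 without the 2 (adjusted p = 0.0745 and 0.0894, edgeR). The neutrophil gene S100a9 was also high there, at 17.7 and 22.4 CPM against at most 1.33 CPM in the 5 others and 1.66 CPM in the core libraries. Its change was 3.65, or 2.89 without replicate 6, and 0.90 without both, where it was no longer called. Leaving out replicate 5 alone gave 1.72 for Il6 and -0.47, not called, for Ccl2. The mean level of the fat cell marker list was 7.71 and 8.41 log2 CPM in Cast replicates 5 and 6, against 9.85 to 10.36 in the 5 others and 9.41 to 10.40 in the core libraries. Its part in these results was not tested.

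**Figure D4:**
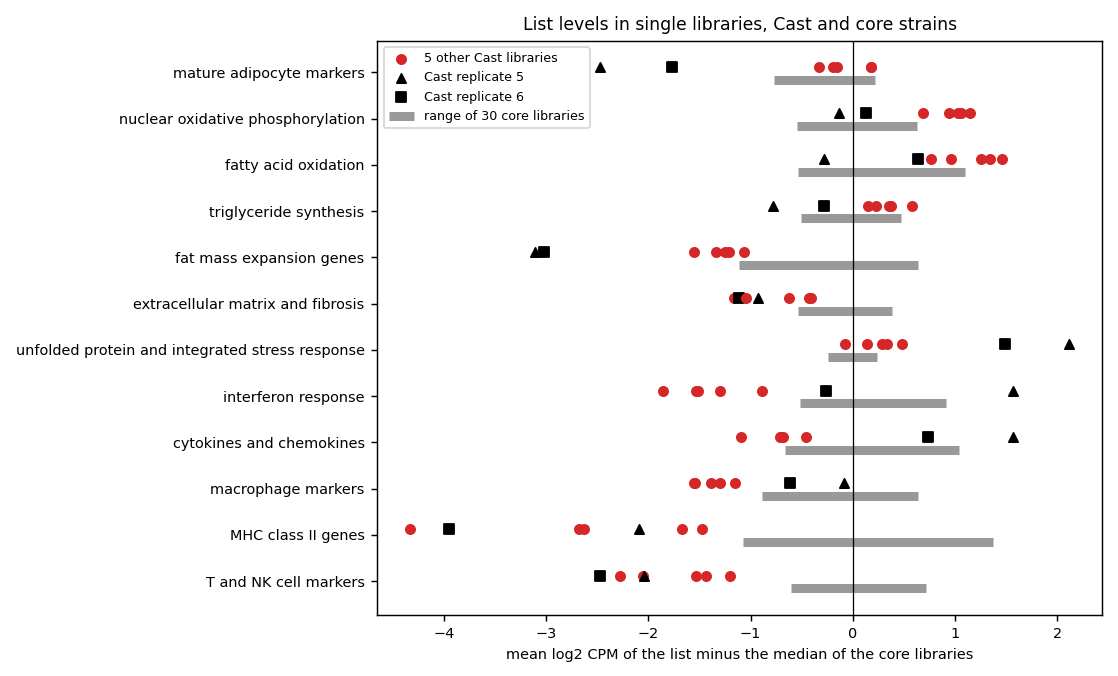
Mean log2 CPM of 12 gene lists (rows) in each Cast library, less the median of the 30 core libraries, with the core range as a grey bar. Cast replicates 5 (triangle) and 6 (square) stand apart from the 5 other Cast libraries (circles) in fat cell, fat mass, stress and interferon genes, while all 7 lie below the core range for class II and for T and NK cell genes.

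Genes that respond to glucocorticoids were higher, with 9 of 14 called higher, 2 lower and a median of 1.02. Fkbp5, a chaperone of the receptor and a common readout of its activity, had 107 to 1141 CPM (median 303) in Cast, against 14.1 to 172 CPM (median 46.6) in the core libraries, with a change of 2.95 ± 0.30 (SE; adjusted p = 1.85e-12). Hsd11b1, which makes active glucocorticoid inside fat cells, had 87.6 to 138 CPM (median 96.4) in Cast, against 18.7 to 100.4 CPM (median 36.3) in the core libraries, with a change of 1.56 ± 0.22. The metal-binding gene Mt1 had 26.5 to 1011 CPM (median 68.6) in Cast, against 14.9 to 118 CPM (median 38.8) in the core libraries, where Cast replicates 1, 5 and 6 lay above the core range and the 4 others within it. Its change was 3.41 ± 0.33, or 2.52 without replicates 5 and 6. Of 19 clock genes 13 were called higher and 1 lower, with a median of 0.76. The labels do not give the hour of tissue collection, so strain and hour cannot be told apart here.

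The other lists, with all 7 Cast libraries, are read against the 30.5% of all genes called higher and 27.7% called lower. Breakdown of branched-chain amino acids had 11 of 21 genes called higher and 1 lower, and Bcat2, which starts it and shares reads, had 142 to 528 CPM (median 383) in Cast, against 51.2 to 152 CPM (median 91.1) in the core libraries. Antioxidant genes had 12 of 25 higher and 7 lower, and the secreted peroxidase Gpx3 had 512 to 1303 CPM (median 668) in Cast, against 136 to 734 CPM (median 246) in the core libraries, a rise of 1.67 ± 0.21. In insulin signalling and glucose use 8 of 24 were higher and 4 lower, near or under those shares, and the basal glucose transporter Slc2a1 had 16.2 to 77.9 CPM (median 30.2) in Cast, against 8.43 to 21.5 CPM (median 12.1) in the core libraries, a rise of 1.59 ± 0.15. Complement components had 5 of 22 higher and 5 lower, under both shares. Progenitor markers had 9 of 18 called lower and 2 higher, among them Fmo2, a flavin monooxygenase with 250.5 to 888 CPM (median 347) in Cast, against 60.8 to 205 CPM (median 117) in the core libraries. Mesothelial markers had 4 of 15 higher and 0 lower, and endothelial markers 5 of 19 higher and 4 lower. Pericyte and smooth muscle markers had 2 of 12 higher and 1 lower. The mesothelial, endothelial and pericyte lists were under both shares with all 7 Cast libraries, whereas the progenitor list was over the share called lower. Dendritic cell, neutrophil and mast cell markers had 5 of 21 higher and 7 lower. Nerve markers had 3 of 10 higher and 2 lower, red blood cell markers 0 of 7 higher and 4 lower, muscle markers 1 of 17 higher and 5 lower, and liver markers 5 of 18 higher and 2 lower. The 4 lists of genital duct, female tract, mammary or skin and pancreas markers kept 1, 7, 6 and 2 tested members. Without Cast replicates 5 and 6 some of these lists read otherwise. Endothelial markers then had 1 higher and 10 lower, and their median moved from 0.02 to -0.28. Insulin signalling and glucose use had 12 higher and 3 lower, and complement components 6 higher and 9 lower. Dendritic cell, neutrophil and mast cell markers had 1 higher and 8 lower.

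**Figure D5:**
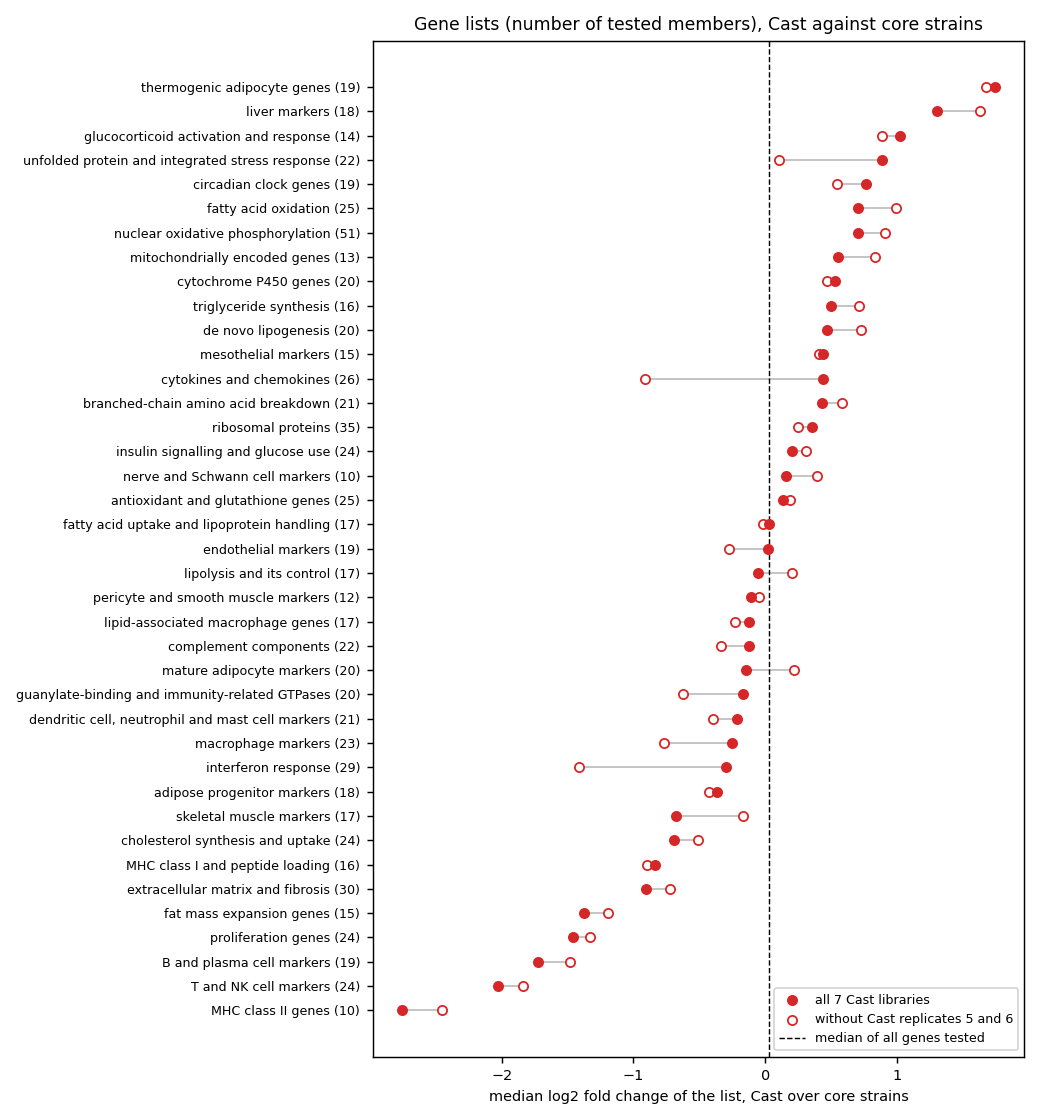
Median log2 fold change (horizontal axis, Cast over core) of each list with at least 10 tested members, with all 7 Cast libraries (filled) and without Cast replicates 5 and 6 (open), and the median of all genes as a dashed line. Lists run from thermogenic genes at 1.74 to class II genes at -2.75, and the longest lines between filled and open points belong to cytokines, interferon and stress genes.

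Contrasts with PWK and WSB from the same fit show where these levels stand beside the other wild-derived strains. Cast differed from PWK in 8335 genes (44.8%) and from WSB in 7731 (41.6%). These contrasts share the Cast libraries with the main one, so they are set side by side and not counted as separate evidence. Calb1 averaged 0.0977 CPM in PWK and 0.0638 CPM in WSB, so Cast was higher than both (log2 fold changes 9.07 and 9.58). Irf4 averaged 453 CPM in WSB, and Cast was not called different from it (0.44, adjusted p = 0.493, edgeR), whereas it exceeded PWK at 47.2 CPM (3.71). Cyp2e1 likewise averaged 9149 CPM in WSB (Cast over WSB -0.43, adjusted p = 0.438) and 1137 CPM in PWK (2.58). Lep averaged 105 CPM in WSB and 966 CPM in PWK, and Cast was called lower than PWK (-3.96) but not than WSB (-0.76, adjusted p = 0.413). H2-Aa was lower in Cast than in PWK (-2.38) and WSB (-2.33), while H2-Eb1 was higher in Cast than in PWK (1.85) and WSB (3.58). Folr2 was not called between Cast and PWK (0.20, adjusted p = 0.411) and was higher in Cast than in WSB (1.87). Retnla was lower in Cast than in PWK (-5.20) and in WSB (-4.25). The respiratory gene Uqcrfs1 was not called between Cast and either strain, at 0.10 and -0.00 for Cast over PWK and over WSB.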

How the data were processed

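RNA had been isolated from frozen adipose tissue and made into poly(A) libraries, per the labels' protocols. What the authors deposited are expected counts per gene (read estimates that divide a read among the genes it matches) and log2 values from the variance-stabilising transformation. The submitters' processing notes name DESeq2 and the build GRCm38. Aligner and counter are not given in the sources used here. Whether Cast reads were matched to GRCm38 or to a Cast genome is not stated in them either. A loss of Cast reads at genes that differ from the reference was not tested for any level given here. Of the deposited expected counts 21.1% were not whole within 1e-06. A gene is said to share reads where this held in over 50% of the 37 libraries, which was so for 4118 of the tested genes (22.1%). Gene positions are as in the deposited annotation. Spreadsheet dates were restored to symbols for 23 genes.

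Expected counts were rounded. The filterByExpr filter, grouped by strain, kept 18603 of 21169 genes. After TMM scaling of all 61 libraries, edgeR 4.0.16 (R 4.3.3) fitted 1 mean per strain with robust quasi-likelihood dispersion. The contrast was Cast minus the mean of 129, AJ, B6 and NOD. A gene was called where its 2-sided p, adjusted by Benjamini-Hochberg over all tested genes, was under 0.05. Contrasts with PWK and WSB came from the same fit. Gene levels are CPM after TMM scaling (prior count 2 for logs), whereas Xist and summed markers are relative to library totals. The procedure was tested on simulated data, in which few genes changed and all genes shared 1 dispersion. That setting differs from these data.

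The comparison, its 44 gene lists (804 tested members) and the genes named were chosen with earlier results of these data known. By rule the text draws on the 12 largest called changes in each direction that passed limits on level and separation, the 8 most abundant called genes, up to 4 called members per list with the farthest in the other direction, and 6 checks. Outside this rule, Cd27, Cd68, Cd74, H2-DMa, H2-Oa, Hsd11b1, Klrb1c, Lyz2, Mrc1, Ppargc1a and Prdm16, and the genes near 0 in one group, were named after their values were seen. Alternatives were RLE size factors, other filters, DESeq2 1.42.0, limma 3.58.1 on the deposited log2 values, a replicate block, an Xist covariate, libraries or strains left out, and genes on autosomes or without shared reads. A few genes that this rule names are not reported here. Promoter sequences are from RefSeq.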

Additional observations from a re-analysis of the deposited data

Results flagged for a closer look

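For 105 genes named in the text, libraries far from the others of their strain were searched for by Dixon's ratio on log2 CPM. Xist, Kcnk3, mt-Co1, mt-Nd4, mt-Nd5, Pkd2l1, Acot5, Tectb and Ppp1r3g were named but not searched. Among 525 groups of gene and strain, 43 (8.19%) held such a library, where chance alone flags about 1 in 20. The values follow, each with the range of the other libraries of the same strain. In Cast, 6 genes were picked out. Cast replicate 2 had Ppargc1a at 70.3 CPM against 14.3 to 22.6 CPM. Cast replicate 5 had Chrnb4 at 2.73 CPM against 9.31 to 13.5 CPM, Mx1 at 44.9 CPM against 0.224 to 2.29 CPM, Rpl19 at 366 CPM against 269 to 299 CPM. Cast replicate 8 had Ltf at 35.3 CPM against 0.056 to 0.608 CPM, Tph2 at 0.0289 CPM with the other libraries at 0.

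In the core strains the following libraries stood apart. 129 replicate 2 had Idi1 at 101 CPM against 38.4 to 53.9 CPM. 129 replicate 3 had Kcnj14 at 36.5 CPM against 48.7 to 57.3 CPM. 129 replicate 9 had Birc5 at 2.27 CPM against 0.685 to 1.11 CPM, Bub1b at 4.48 CPM against 1.24 to 1.77 CPM, Ciita at 18.5 CPM against 10.8 to 12.7 CPM. It also had Serpina3j at 0.0957 CPM with the other libraries at 0. AJ replicate 2 had Cd74 at 159.6 CPM against 256 to 366 CPM, Ciita at 4.2 CPM against 6.93 to 9.98 CPM. AJ replicate 3 had Hsd11b1 at 100.4 CPM against 32.7 to 47.0 CPM. AJ replicate 4 had Crisp1 at 5.62 CPM against 0 to 0.243 CPM. B6 replicate 2 had Col6a2 at 522 CPM against 759 to 989.5 CPM, Tmem45b at 108 CPM against 184 to 292 CPM. B6 replicate 3 had Insig1 at 293 CPM against 437 to 609.7 CPM, Sc5d at 70.3 CPM against 106 to 145 CPM. B6 replicate 6 had Cyp2e1 at 276 CPM against 1062 to 2785 CPM, Fabp4 at 5710 CPM against 8287 to 11460 CPM, Gpat4 at 93.0 CPM against 113 to 133 CPM. It also had Mrc1 at 256 CPM against 170.2 to 205 CPM, Ms4a7 at 16.3 CPM against 5.18 to 8.62 CPM, Oprk1 at 0.111 CPM against 0 to 0.0249 CPM. NOD replicate 2 had H2-Oa at 0 CPM against 0.184 to 0.792 CPM. NOD replicate 4 had Pdk4 at 688 CPM against 279 to 365 CPM. NOD replicate 5 had Serpina3j at 0.0524 CPM with the other libraries at 0. NOD replicate 6 had Adipoq at 1012 CPM against 1830 to 3002 CPM, Cd68 at 131 CPM against 49.4 to 74.1 CPM, Cfd at 450.3 CPM against 1518 to 2678 CPM. It also had Crisp1 at 1181 CPM against 0 to 0.288 CPM, Gpx3 at 734 CPM against 194 to 316 CPM, Hmox1 at 42.6 CPM against 22.2 to 27.7 CPM. It also had Ltf at 69.9 CPM against 0 to 0.288 CPM, Nnat at 170.1 CPM against 350.0 to 567 CPM, St6galnac5 at 3.3 CPM against 9.88 to 25.7 CPM. It also had Timp1 at 12.6 CPM against 3.56 to 6.2 CPM, Trem2 at 44.9 CPM against 11.8 to 19.2 CPM. NOD replicate 7 had Cycs at 93.2 CPM against 73.4 to 81.8 CPM, H2-Aa at 105 CPM against 168 to 229.8 CPM, H2-Ab1 at 50.4 CPM against 81.7 to 119.5 CPM.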

How the results depend on the processing

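The number of genes called, 10838, stayed within 1.5 times of that value under every alternative. Without each Cast library in turn it ran from 10210 to 10794, and under the other settings with the same genes tested it ran from 9673 without Cast replicates 5 and 6 to 11238 with log2 Xist as a covariate. RLE size factors gave 10859, DESeq2 11121 and limma on the variance-stabilised values 10817, and 11323 were called with no filter on low counts. The share of calls that were higher in Cast lay between 48.9% and 54.5%. Of the 3889 genes called with at least a 2-fold change, 1366 were left once low genes were held to a mean of 5 CPM or more, which kept 11171 genes for the test. On the variance-stabilised values 1322 genes passed this limit, a transformation that compresses the differences of genes with low counts. Without each Cast library in turn this count ran from 3657 to 4004.

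The replicate numbers were not taken to pair the samples, since the labels give them no shared source and not every pair was correlated above 0.1. Of 25 pairs of same-numbered libraries 16 had deviations correlated above 0.1, with values from -0.0893 to 0.382 and a median of 0.148, against a median of -0.0215 for libraries of different numbers. Same-numbered libraries thus shared some of their deviations. Xist lay at 398 to 630 CPM in those of the 37 libraries numbered 1 to 4 apart from AJ replicate 1 (6.38 CPM), and at 0.212 to 52.8 CPM in those numbered 5 or higher. With the replicate number as a block 10844 genes were called. Of the genes given with values, Ccl2 (0.73, adjusted p = 0.265, edgeR), Mx1 (1.098, adjusted p = 0.0797), Cited1 (-1.69, adjusted p = 0.147), Emcn (0.24, adjusted p = 0.108), Ltf (1.45, adjusted p = 0.363) and Crisp1 (-3.41, adjusted p = 0.238) were no longer called.

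Single genes reversed as follows, on the log2 scale. Without Cast replicates 5 and 6 the values were -1.19 for Ccl2, -0.27 for Emcn, -1.44 for Il6, -1.03 for Mx1 and -1.34 for Timp1. With single Cast libraries left out, Ccl2 ran from -0.47 to 1.78 and Mx1 from -0.65 to 2.33, lowest without replicate 5. Cps1 ran from -0.25 without replicate 3 to 3.05, and Ltf from -1.26 without replicate 8 to 2.88. Without the 10 libraries rich in liver, genital duct or muscle markers, an alternative chosen after seeing the data, 10387 genes were called and Crisp1 was at 3.97. Of the genes given with values, limma on the variance-stabilised values did not call Ccl2, Cited1, Cps1, Crisp1, Emcn, Ltf, Mx1, S100a9, Timp1 and Ucp1 (Ucp1 2.03, adjusted p = 0.127). Plin1 was called lower with the replicate block (-0.46) and without Cast replicate 7 (-0.56) or 8 (-0.55), and without the marker-rich libraries (-0.51). The causes were not tested. Depth was at least 31185720 counts in all 37 libraries, but genes such as Cd3g rested on few reads in Cast, so the size of their change is imprecise.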
